A study of Mus musculus with 12 samples.

Results

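The genes described here are the 9 core genes of classical non-homologous end joining and its partners in mouse, chosen by symbol: Xrcc5 and Xrcc6 (the Ku pair), Prkdc, Dclre1c, Lig4, Xrcc4, Nhej1, Trp53bp1 and Parp1. All 9 were found once in each of the deposited tables, out of 24533 genes with a unique symbol, and all 9 had an adjusted p in both, so a filter on low values removed none. The RNA came from bone marrow of C57BL/6 mice, in 12 libraries in 4 groups of 3: lineage-negative cells (LinNeg) labelled U2af1KO, LinNeg labelled WT, LSK cells labelled U2af1KO and LSK labelled WT. LSK cells, which bear Sca-1 and c-Kit but no lineage antigens, include the stem cells. Both LSK groups also carry the letters BMT, left unexplained by the labels. U2af1 encodes a splicing factor that reads the 3′ splice site. The comparisons ask how its loss alters the transcriptome of each population. The sources used here do not give how U2af1 was inactivated, the sex and age of the mice, or whether each library is a separate animal. The p-values therefore reflect library-to-library spread, which can be technical. KO and WT below mean libraries with those labels. Fold changes are KO over WT on the log2 scale.

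Non-homologous end joining rejoins a broken chromosome without a template. The Ku ring of Xrcc5 (Ku80) and Xrcc6 (Ku70) slides onto the broken end and recruits the kinase DNA-PKcs (Prkdc), which activates the nuclease Artemis (Dclre1c), and ligase IV (Lig4) with its partners Xrcc4 and XLF (Nhej1) seals the ends. The chromatin protein Trp53bp1 shields ends from resection, which favours joining over homologous recombination, and Parp1 marks breaks with poly(ADP-ribose). In marrow the same machinery completes V(D)J recombination in lymphoid precursors, and mice lacking some of the core members lose lymphocytes.

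The promoters of the 3 genes whose transcripts moved most, Xrcc5, Xrcc6 and Trp53bp1, are shown because they are the sequence next to the changes described below. RefSeq promoter windows on GRCm38.p6, 250 bases before and 50 after the start, were found for 8 of the 9 genes. Capitals mark matches, on either strand, to any of 8 short motifs: CACGTG (E-box), GGGCGG (GC box), CCGGAAG (ETS), CCAAT (NF-Y), ATGGCG (YY1), CATGCGC (part of an NRF1 site), TTGGCGC and TTCCCGC (both E2F). No matches overlapped in these windows. The Xrcc5 window is chr1:72307171-72307470, plus strand, the Xrcc6 window is chr15:82016119-82016418, plus strand, and the Trp53bp1 window is chr2:121271358-121271657, minus strand, each read 5′ to 3′ along its gene. The RefSeq start of Xrcc6 lies inside the longer GENCODE span given for it below.
Xrcc5: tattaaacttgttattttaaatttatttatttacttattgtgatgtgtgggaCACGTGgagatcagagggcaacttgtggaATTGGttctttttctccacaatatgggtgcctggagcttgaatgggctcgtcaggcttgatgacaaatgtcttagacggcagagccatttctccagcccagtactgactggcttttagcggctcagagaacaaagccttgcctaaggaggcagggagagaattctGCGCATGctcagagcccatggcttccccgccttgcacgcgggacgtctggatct
Xrcc6: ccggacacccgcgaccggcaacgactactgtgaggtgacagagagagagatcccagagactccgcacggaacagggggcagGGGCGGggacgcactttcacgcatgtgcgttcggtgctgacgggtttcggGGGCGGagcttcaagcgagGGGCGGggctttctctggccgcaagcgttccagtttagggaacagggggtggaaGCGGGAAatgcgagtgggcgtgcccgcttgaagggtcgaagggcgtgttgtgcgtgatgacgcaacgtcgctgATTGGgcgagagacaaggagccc
Trp53bp1: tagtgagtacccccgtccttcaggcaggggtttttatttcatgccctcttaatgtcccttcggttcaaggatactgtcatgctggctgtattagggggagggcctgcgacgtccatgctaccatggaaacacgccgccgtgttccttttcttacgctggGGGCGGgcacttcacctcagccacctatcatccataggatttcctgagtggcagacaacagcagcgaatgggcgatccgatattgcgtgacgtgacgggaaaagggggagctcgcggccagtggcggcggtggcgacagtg
The partners of the Ku pair differed in these letters. Xrcc5 held an E-box 198 bases before the start, a CCAAT box and the NRF1 letters, and had 48% G and C. Xrcc6 held 3 GC boxes, an E2F motif and a CCAAT box, and had 64.3% G and C, while Trp53bp1 held a single GC box. Of all 32851 windows of this length, 7.15% held the E-box, 35.7% the GC box, 37.4% the CCAAT box, 3.91% the NRF1 letters and 4.60% this E2F motif. A match is a string of letters and not a measured binding site.

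The deposited values are comparisons rather than libraries, so levels below are group means derived from the authors' overall mean and fold change with 3 libraries a side, and values of single libraries were not analysed here. U2af1 itself, counted over the whole gene, was higher in KO in both of the authors' deposited tables, at 0.65 ± 0.19 (standard error) in LinNeg and 0.61 ± 0.06 in LSK, a count that does not check a deletion of part of the gene. The median gene of the LinNeg comparison stood at 0.16, so LinNeg results are also given relative to it (recentred), whereas that of LSK stood at 0.04. Recentring turned 3781 genes higher and 3307 lower in LinNeg into 3025 higher and 4116 lower. The groups differed in more than the label. Erythroid marker sums were 75919 normalized counts in KO and 16569 in WT in LinNeg, and 94256 in KO and 14744 in WT in LSK, with 8 of 9 tested markers higher in LinNeg and 9 of 9 in LSK. Monocyte and dendritic marker sums were 6178 in KO and 70839 in WT in LinNeg (8 of 8 lower), and 6211 in KO and 6457 in WT in LSK (2 higher and 2 lower of 7). Neutrophil granule sums were 4352 in KO and 87076 in WT in LinNeg (7 of 7 tested lower), against 172059 in KO and 61154 in WT in LSK (8 of 8 higher). The neutrophil gene Ltf, without an adjusted p in LinNeg, stood at 354 in KO and 141 in WT there. Lymphoid sums were 7646 in KO and 14685 in WT in LinNeg (2 of 7 tested lower), and 849 in KO and 16900 in WT in LSK (6 of 8 lower). The lymphoid gene Rag1, also without an adjusted p in LinNeg, stood at 1283 in KO and 614 in WT there. Of 6 genes that mark LSK cells, 5 were lower in KO in LSK, with sums of 23138 in KO and 71045 in WT, and 1 rose and 1 fell in LinNeg, with sums of 6408 in KO and 5912 in WT. Among 6 mature lineage antigens the neutrophil antigen Ly6g was near 0 in both populations, and 1 rose and 1 fell in each, with sums of 5325 in KO and 4691 in WT in LinNeg and 1835 in KO and 1437 in WT in LSK. Only 4 of the 6 were tested in LinNeg, where Cd3e, without an adjusted p, stood at 670 in KO and 62.7 in WT. All these marker counts are to be read beside the shares of all genes called, 41.4% in LinNeg and 61.6% in LSK. Y-linked Ddx3y, Eif2s3y, Uty and Kdm5d had derived means of 3.33 to 4.99 in LSK KO and 1895 to 2949 in LSK WT, and Xist was at 7.49 ± 0.94 in LSK and 10.02 ± 1.81 in LinNeg in the authors' deposited tables, so sex and label cannot be told apart in LSK. In LinNeg the Y-linked genes were not called, at -0.91 to -0.68 with standard errors of 1.45 to 1.99 in the authors' deposited table. Xist had derived means of 41468 in LinNeg KO and 40.0 in LinNeg WT, so sex and label are not cleanly separate in LinNeg either. The part of cell makeup and of sex in the results below was not tested, and fewer cells of a type and less RNA per cell cannot be told apart in bulk RNA.

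In LinNeg cells 4 of the 9 genes rose in KO and 0 fell: Xrcc5, Xrcc6, Parp1 and Prkdc. In LSK cells Xrcc5, Xrcc6 and Parp1 rose, all by less than 1.5-fold, while Trp53bp1 and Xrcc4 fell. A gene was called where the adjusted p from the authors' DESeq2 run was under 0.05. Genes called made up 41.4% of all 17108 tested in LinNeg (22.1% higher and 19.3% lower) and 61.6% of all 16482 tested in LSK (32.4% higher and 29.2% lower), background shares to be read beside 44.4% and 55.6% of these 9 genes. The members' shares are near the background, so the counts alone say nothing particular to end joining. The median fold change over the 9 genes was 0.12 in LinNeg, beside 0.16 over all genes, and 0.07 in LSK, beside 0.04 over all genes. After recentring, 3 genes were called in LinNeg: Xrcc5 and Xrcc6 higher and Trp53bp1 lower (adjusted p = 0.0307), with Parp1 (adjusted p = 0.133) and Prkdc (adjusted p = 0.217) no longer called. That is beside 41.7% of all genes called after recentring, 17.7% higher and 24.1% lower. In LSK 4 of the 9 were called after recentring, 2 higher and 2 lower, beside 30.6% of all genes higher and 30.9% lower.

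**Figure D1:**
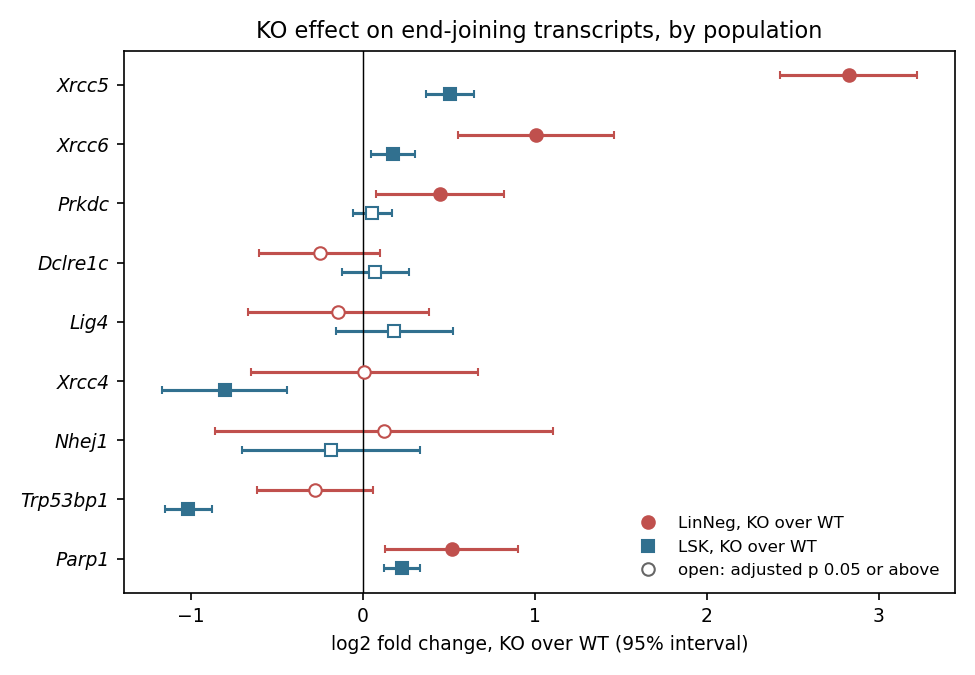
Log2 fold change of KO over WT (x axis) for each of the 9 genes (y axis) in LinNeg (circles) and LSK (squares), with 95% intervals; filled symbols have an adjusted p under 0.05. Xrcc5 in LinNeg stands alone at 2.82, and Trp53bp1 and Xrcc4 are the members left of zero with filled symbols, both in LSK.

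The Ku pair rose in LinNeg, Xrcc5 more than Xrcc6, and Xrcc5 also rose in LSK. Xrcc6 rose in LSK too, a call that recentring ends. Xrcc5 (ENSMUSG00000026187.8, chromosome 1, 72307421 to 72394952, plus strand, GENCODE M21 on mm10) had a derived mean of 1826 normalized counts in LinNeg KO and 258 in LinNeg WT. In the authors' deposited table for LinNeg it stood at 2.82 ± 0.20 (adjusted p = 9.14e-42), or 7.08-fold with a 95% interval of 5.38 to 9.33. By the authors' Wald statistic in the deposited table it ranked 14 among the 3781 genes called higher in LinNeg, and 220 of the 11597 tested genes with a mean of at least 100, or 1.90%, rose by as much or more, Xrcc5 included. In LSK the derived means of Xrcc5 were 1670 in KO and 1175 in WT, and the authors' deposited table gave 0.51 ± 0.07 (adjusted p = 4.03e-12), a 1.42-fold rise.

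Xrcc6 (ENSMUSG00000022471.14, chromosome 15, 81987835 to 82040085, plus strand), the Ku70 partner, had derived means of 3450 in LinNeg KO and 1718 in LinNeg WT. The authors' deposited table for LinNeg gave it 1.01 ± 0.23 (adjusted p = 7.71e-05), a 2.01-fold rise with an interval of 1.47 to 2.75. In LSK it stood at 3013 in KO and 2668 in WT, at 0.18 ± 0.06 in the authors' deposited table (adjusted p = 0.0122), a rise no longer called after recentring (adjusted p = 0.0627). Desi1, a deSUMOylating peptidase gene on the opposite strand, overlaps 41340 bases of Xrcc6. The sources used here do not state the strand setting of the counting. Desi1 rose as well in the authors' deposited tables, by 0.77 ± 0.23 in LinNeg (adjusted p = 0.00284) and 0.44 ± 0.06 in LSK (adjusted p = 3.61e-11). The overlap is of gene spans, introns included, so how far reads of the pair could be told apart is not known.

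Because Ku works as a pair of 1 subunit each, the ratio of both transcripts per kb of merged exon was computed within each table, where the normalization cancels. In LinNeg the ratio of Xrcc5 to Xrcc6 was 0.927 in KO and 0.263 in WT, and in LSK it was 0.971 in KO and 0.772 in WT. The LinNeg WT group thus had the lowest Xrcc5 transcript relative to Xrcc6 of the 4 groups, and the other 3 lay between 0.772 and 0.971. These ratios are of group means and carry no error, since the covariance of both genes across libraries was not analysed here. Their absolute size also depends on the merged exon lengths used, 2.555 kb for Xrcc5 and 4.476 kb for Xrcc6. It is therefore no measure of the balance of subunits.

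**Figure D2:**
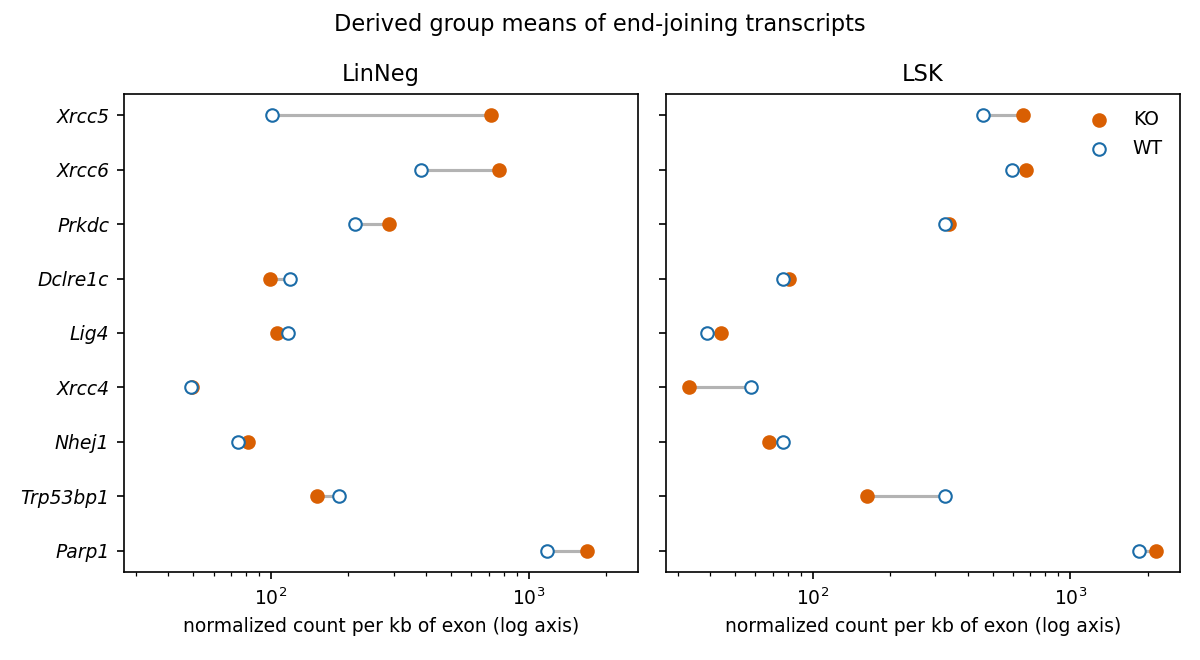
Derived group means per kb of merged exon (x axis, log scale, normalized counts) of the 9 genes (y axis) in KO (filled) and WT (open), for LinNeg at left and LSK at right, without error bars since only group means could be derived. The LinNeg WT mean of Xrcc5, 101 per kb, lies far left of its KO mean of 715, while in LSK the widest gap is that of Trp53bp1, at 163 in KO and 328 in WT.

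Prkdc and Dclre1c are the kinase and nuclease that act on Ku-bound ends. Prkdc rose in LinNeg, a call that recentring ends, and Dclre1c was not called. Prkdc (ENSMUSG00000022672.8, chromosome 16, 15637866 to 15842235, plus strand) had derived means of 3799 in LinNeg KO and 2785 in LinNeg WT, and 4482 in LSK KO and 4310 in LSK WT. In the authors' deposited table for LinNeg it stood at 0.45 ± 0.19 (adjusted p = 0.0450; 0.217 after recentring). In that for LSK it stood at 0.06 ± 0.06 (adjusted p = 0.404), with an interval of -0.06 to 0.17. Dclre1c (ENSMUSG00000026648.18, chromosome 2, 3424131 to 3464130, plus strand) was not called in either population, at 927 in KO and 1103 in WT in LinNeg and 753 in KO and 716 in WT in LSK. Its values in the authors' deposited tables were -0.25 ± 0.18 in LinNeg (adjusted p = 0.272) and 0.07 ± 0.10 in LSK (adjusted p = 0.538).

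Of the ligase complex Xrcc4 fell in LSK, and neither Lig4 nor Nhej1 was called in either population. Xrcc4 (ENSMUSG00000021615.13, chromosome 13, 89774027 to 90089608, minus strand), the scaffold that stabilises ligase IV, had derived means of 140 in LSK KO and 244 in LSK WT. For LSK the authors' deposited table gave -0.80 ± 0.19 (adjusted p = 3.98e-05), which is 0.573-fold with an interval of 0.445 to 0.738. In LinNeg its derived means were 208 in KO and 207 in WT, and the authors' deposited table gave 0.01 ± 0.34 (adjusted p = 0.985). Lig4 (ENSMUSG00000049717.9, chromosome 8, 9969049 to 9977686, minus strand) was at -0.14 ± 0.27 in LinNeg (adjusted p = 0.713) and 0.18 ± 0.17 in LSK (adjusted p = 0.367) in the authors' deposited tables, with derived means of 550 in KO and 606 in WT in LinNeg and 230 in KO and 202 in WT in LSK. Nhej1 (ENSMUSG00000026162.7, chromosome 1, 74967139 to 75125200, minus strand), the XLF filament partner of Xrcc4, had the fewest counts, at 91.2 in KO and 83.7 in WT in LinNeg and 75.7 in KO and 86.1 in WT in LSK. The authors' deposited tables gave it 0.12 ± 0.50 in LinNeg (adjusted p = 0.872) and -0.19 ± 0.26 in LSK (adjusted p = 0.562). Its LinNeg interval, 0.552-fold to 2.15-fold, holds rises and falls that were not detectable at this depth. Per kb, the ratio of Xrcc4 to Lig4 was 0.750 in LSK KO and 1.49 in LSK WT, against 0.467 in LinNeg KO and 0.421 in LinNeg WT. As for the Ku pair, these ratios carry no error and their absolute size depends on the merged exon lengths. They are no measure of the balance of the proteins.

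Trp53bp1 had the largest fall of the 9 genes. Trp53bp1 (ENSMUSG00000043909.16, chromosome 2, 121193281 to 121271407, minus strand) had derived means of 2302 in LSK KO and 4646 in LSK WT. The authors' deposited table for LSK gave it -1.01 ± 0.07 (adjusted p = 5.85e-48), which is 0.495-fold with an interval of 0.451 to 0.544. By the Wald statistic in the authors' deposited table it ranked 482 among the 4810 genes called lower in LSK. In LinNeg the derived means were 2145 in KO and 2597 in WT, and the authors' deposited table gave -0.28 ± 0.17 (adjusted p = 0.194). After recentring it was called lower in LinNeg too, at -0.43 (adjusted p = 0.0307). Tubgcp4, a gamma-tubulin ring gene whose 3′ end overlaps 5490 bases of Trp53bp1 on the other strand, moved the opposite way in the authors' deposited table for LSK, at 0.25 ± 0.06 (adjusted p = 0.000354).

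Parp1 (ENSMUSG00000026496.11, chromosome 1, 180568924 to 180601254, plus strand), the break sensor, was the most abundant transcript of the 9 per kb. It rose in both populations, a call that recentring ends in LinNeg (adjusted p = 0.133). Its derived means were 8905 in LinNeg KO and 6225 in LinNeg WT, and 11430 in LSK KO and 9754 in LSK WT. The authors' deposited tables gave 0.52 ± 0.20 in LinNeg (adjusted p = 0.0244), a 1.43-fold rise, and 0.23 ± 0.05 in LSK (adjusted p = 6.51e-05), a 1.17-fold rise.

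The KO effect differed between the populations for 3 of the 9 genes, Xrcc5, Xrcc6 and Trp53bp1, each with the lower value in LSK. The test was the difference of both log2 fold changes over its standard error, two-sided against the normal distribution, with Benjamini-Hochberg adjustment over 15735 genes, of which 31.9% differed (17.4% with the higher value in LSK and 14.5% with the lower). The 33.3% of these 9 is again near the background. The LSK groups alone carry the letters BMT, and the Y-linked genes split by label more sharply in LSK than in LinNeg. Population, the setting behind those letters and sex cannot be told apart in this difference. For Xrcc5 the difference, LSK minus LinNeg, was -2.32 (interval -2.74 to -1.90, adjusted p = 4.24e-25), since it rose in both but far more in LinNeg. For Xrcc6 it was -0.83 (interval -1.30 to -0.36, adjusted p = 0.00282). For Trp53bp1 it was -0.74 (interval -1.10 to -0.37, adjusted p = 0.000441). The fall of Xrcc4 was called in LSK alone, yet its difference of -0.81 (interval -1.57 to -0.06) did not pass (adjusted p = 0.0924), nor did that of Prkdc at -0.39 (interval -0.78 to -0.003, adjusted p = 0.121). The remaining differences were 0.33 for Lig4, 0.32 for Dclre1c, -0.31 for Nhej1 and -0.29 for Parp1, with adjusted p from 0.237 to 0.734.

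**Figure D3:**
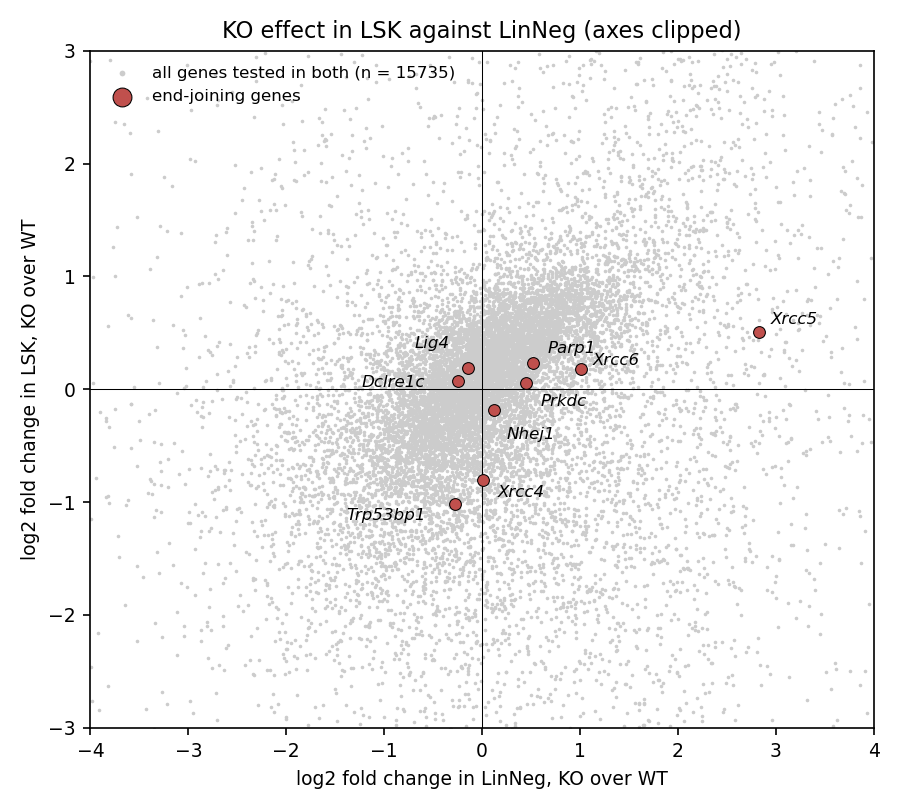
Log2 fold change of KO over WT in LinNeg (x axis) and in LSK (y axis) for 15735 genes tested in both (grey) and the 9 end-joining genes (red, named), with the axes clipped to show the centre. Xrcc5 lies at 2.82 and 0.51, far to the right, while Trp53bp1 at -0.28 and -1.01 and Xrcc4 at 0.01 and -0.80 lie below the others.

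The order of the fold changes and of the levels was compared within each table. In LinNeg the order from high to low was Xrcc5, Xrcc6, Parp1, Prkdc, Nhej1, Xrcc4, Lig4, Dclre1c and Trp53bp1; the interval of Xrcc5 (2.43 to 3.22) lay clear of all others, while from Xrcc6 down each gene's interval overlapped that of the next. In LSK the order was Xrcc5, Parp1, Lig4, Xrcc6, Dclre1c, Prkdc, Nhej1, Xrcc4 and Trp53bp1, where the interval of Xrcc5 (0.37 to 0.65) lay above that of Parp1 (0.12 to 0.34) but overlapped that of Lig4 (-0.16 to 0.53), and neighbours further down overlapped. Mean normalized counts per kb of merged exon ran from 49.2 for Xrcc4 to 1429 for Parp1 in LinNeg and from 41.5 for Lig4 to 2001 for Parp1 in LSK. In both tables Parp1, Xrcc6, Xrcc5, Prkdc and Trp53bp1 held ranks 1 to 5 in that order, and the ligase complex genes and Dclre1c held the rest.

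The lists of related genes below have medians to be read beside those of all genes, 0.16 in LinNeg and 0.04 in LSK. Their counts are to be read beside the shares of all genes called, 41.4% in LinNeg (22.1% higher, 19.3% lower) and 61.6% in LSK (32.4% higher, 29.2% lower), and nothing particular to a list is drawn from them. Of 10 accessory factors counted, 3 rose and 0 fell in LinNeg (median 0.02; 1 rose and 0 fell after recentring) and 5 rose and 3 fell in LSK (median 0.11; 5 rose and 4 fell after recentring). Those called made up 30% of the list in LinNeg, against 41.4% of all genes, and 80% in LSK, against 61.6%. Per the authors' deposited tables the Ku-binding histone chaperone Aplf rose, by 0.92 ± 0.21 in LinNeg (adjusted p = 8.34e-05) and 0.89 ± 0.09 in LSK (adjusted p = 7.83e-22). Of the polymerases that fill gaps in joining, the authors' deposited table for LSK gave Polm 2.25 ± 0.17 (adjusted p = 2.96e-40), against 0.67 ± 0.23 in LinNeg (adjusted p = 0.0103; 0.0561 after recentring). Poll went the other way in LSK, at -0.19 ± 0.09 (adjusted p = 0.0505), and was called lower there after recentring (adjusted p = 0.0153). In LinNeg Poll was not called, at -0.03 ± 0.23 (adjusted p = 0.923). The helicase Wrn stood at 0.83 ± 0.06 in the authors' deposited table for LSK (adjusted p = 4.39e-46) and at 0.08 ± 0.15 in LinNeg, and the repair ATPase Ercc6l2 rose in LinNeg by 0.49 ± 0.16 (adjusted p = 0.00683; 0.0795 after recentring).

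Of the V(D)J recombination genes, those restricted to lymphoid precursors were lower in LSK. Terminal transferase, Dntt, which is counted among the accessory factors too and adds bases at V(D)J joints, stood at -6.56 ± 0.30 in the authors' deposited table for LSK (adjusted p = 1.08e-105) and at -1.54 ± 1.87 in LinNeg (adjusted p = 0.547), where the error is too wide to place it. The recombinase subunit Rag2 had derived means of 7.30 in LSK KO and 117 in LSK WT, with an adjusted p of 8.08e-20 in the authors' deposited table. The lymphoid marker sums given above include Dntt, Rag1 and Rag2, so they are no separate measure beside these genes. The part of lymphoid cells in these falls was not tested. Of the 5 V(D)J genes, 3 fell in LSK and the DNA-bending proteins Hmgb1 and Hmgb2 rose there, while in LinNeg 1 of 4 tested was called, Hmgb2, which the authors' deposited table gave as -0.70 ± 0.18 (adjusted p = 0.000624). These counts over a handful of genes stand beside 41.4% of all genes called in LinNeg and 61.6% in LSK. In LSK the authors' deposited table gave Hmgb2 0.63 ± 0.05 and Hmgb1 0.43 ± 0.05.

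Break sensing and the Trp53bp1 axis had 4 of 14 genes higher and 0 lower in LinNeg (median 0.23; 2 higher and 1 lower after recentring) and 4 higher and 4 lower in LSK (median 0.13). The 28.6% called in LinNeg stand beside 41.4% of all genes, and the 57.1% in LSK beside 61.6%. The sensor Nbn rose in both authors' deposited tables, by 0.82 ± 0.17 in LinNeg (adjusted p = 1.07e-05) and 0.55 ± 0.07 in LSK (adjusted p = 6.36e-15), and its partner Mre11a by 0.41 ± 0.13 in LinNeg (adjusted p = 0.00783; 0.123 after recentring). Rif1, the effector that acts with Trp53bp1 at breaks, was higher where called: the authors' deposited tables gave 0.63 ± 0.15 in LinNeg (adjusted p = 0.000212) and 0.15 ± 0.05 in LSK (adjusted p = 0.00826; 0.0685 after recentring). The authors' deposited table for LSK had the break histone H2afx at 0.86 ± 0.06 (adjusted p = 3.69e-53) and the kinase Atm at -0.29 ± 0.06 (adjusted p = 1.35e-06).

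Alternative end joining, the pathway that uses short matching stretches, had 3 of 7 genes higher in LinNeg (median 0.31; 2 after recentring) and 6 of 7 higher in LSK (median 0.39), and 0 lower in either. The 42.9% in LinNeg are near the 41.4% of all genes called there, and the 85.7% in LSK, all higher, stand beside 61.6% of all genes called and 32.4% higher. Its polymerase Polq rose by 1.18 ± 0.20 in LinNeg (adjusted p = 6.67e-08) and 0.92 ± 0.07 in LSK (adjusted p = 2.39e-38) in the authors' deposited tables, and the flap nuclease Fen1, which also serves replication, by 0.62 ± 0.18 in LinNeg (adjusted p = 0.00262) and 0.91 ± 0.05 in LSK (adjusted p = 3.84e-69). The ligase Lig3 stood at 0.53 ± 0.18 in LinNeg (adjusted p = 0.00924; 0.0785 after recentring) and Parp2 at 0.44 ± 0.08 in LSK (adjusted p = 2.9e-08) in the authors' deposited tables. By the difference test 0 of these 7 genes passed, beside 31.9% of all genes, with Lig3 nearest at an adjusted p of 0.0591, which does not show that the effects were alike.

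Homologous recombination, the template-using route that Trp53bp1 opposes, had 3 of 13 genes higher and 0 lower in LinNeg (median 0.35; 1 higher and 1 lower after recentring) and 6 higher and 3 lower in LSK (median 0.14). The 23.1% called in LinNeg are under the 41.4% of all genes, and the 69.2% in LSK stand beside 61.6%. Brca2 rose in the authors' deposited table for LinNeg by 0.74 ± 0.20 (adjusted p = 0.000918), Xrcc2 by 0.57 ± 0.20 (adjusted p = 0.0138; 0.0860 after recentring) and Brca1 by 0.51 ± 0.21 (adjusted p = 0.0360; 0.164 after recentring). For LSK the authors' deposited table gave Bard1 0.55 ± 0.06 (adjusted p = 3.39e-20), Shfm1 0.92 ± 0.11 (adjusted p = 1.6e-15) and Rad54l 0.51 ± 0.07 (adjusted p = 3.78e-14).

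Of 17 PARP family and poly(ADP-ribose) turnover genes other than Parp1, 0 rose and 6 fell in LinNeg (median -0.23; 9 fell after recentring), and 3 rose and 9 fell in LSK (median -0.35). The 35.3% called in LinNeg, all lower, stand beside 41.4% of all genes called and 19.3% lower (24.1% lower after recentring). The 70.6% called in LSK stand beside 61.6% of all genes called and 29.2% lower. Parp8 stood at -2.51 ± 0.32 in the authors' deposited table for LinNeg (adjusted p = 5.98e-14), and in that for LSK at -1.06 ± 0.10 (adjusted p = 1.98e-23). Parp3, which works with end-joining factors, fell by 0.71 ± 0.22 in LinNeg (adjusted p = 0.00368) and by 1.39 ± 0.14 in LSK (adjusted p = 1.18e-23), per the authors' deposited tables. Parp4, the vault particle member, stood at -0.78 ± 0.22 in LinNeg (adjusted p = 0.00117) and -0.93 ± 0.07 in LSK (adjusted p = 1.13e-41), and Parp6 at -0.99 ± 0.09 in LSK (adjusted p = 1.04e-25), per the authors' deposited tables.

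**Figure D4:**
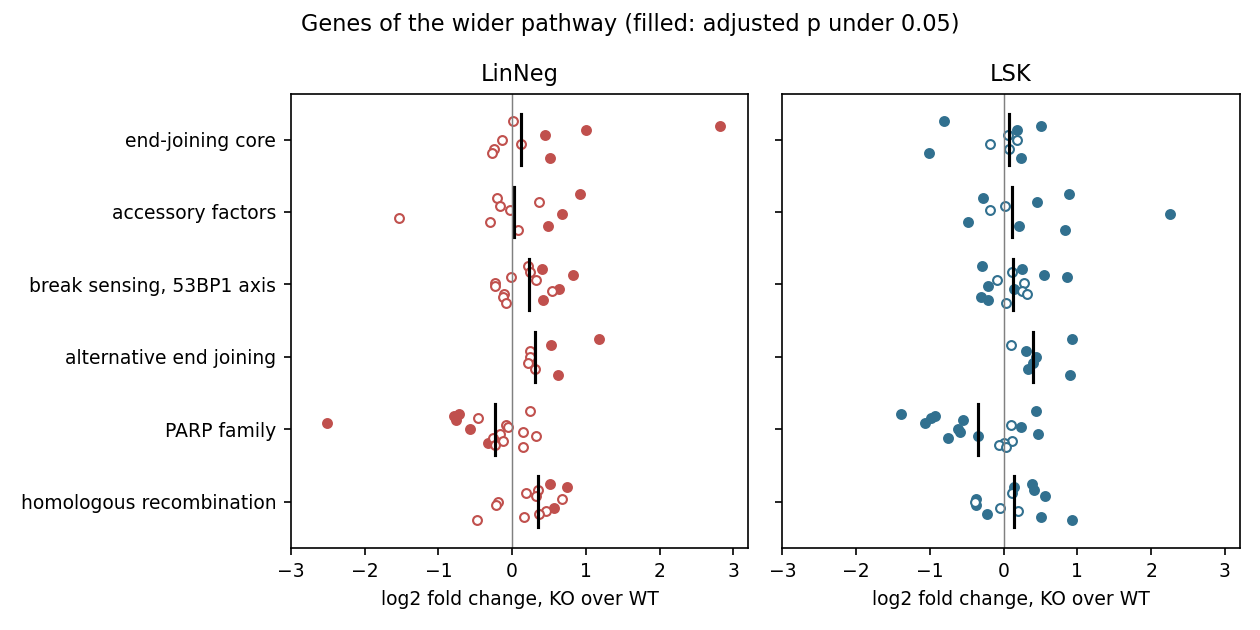
Log2 fold change of KO over WT (x axis) for each gene of the core and of 5 related lists (y axis), in LinNeg at left and LSK at right; filled points have an adjusted p under 0.05 and the bar is the list median. Alternative end joining has 0 genes called lower, the PARP family has most of its called genes left of zero, and Dntt, at -6.56 in LSK, lies beyond the axis.

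Genes that share a start or a stretch of genome with a member were checked too, by GENCODE starts and spans. For Xrcc6 the GENCODE start is not the RefSeq start of the promoter shown, so genes starting near the latter were not sought. Mcm4, a subunit of the replicative helicase, starts 466 bases from Prkdc on the opposite strand and rose in the authors' deposited tables by 0.80 ± 0.18 in LinNeg (adjusted p = 6.02e-05) and 0.53 ± 0.06 in LSK (adjusted p = 3.41e-19). Prkdc was not called in LSK. Tmem167 starts 485 bases from Xrcc4, also head to head, and stood at -0.05 ± 0.14 in LinNeg (adjusted p = 0.815) and 0.24 ± 0.06 in LSK (adjusted p = 0.000627), per the authors' deposited tables. In LSK the pair was called in opposite directions. Abhd13 starts 21 bases from Lig4 and, like it, was not called in either of the authors' deposited tables, at -0.31 ± 0.17 in LinNeg and 0.15 ± 0.08 in LSK. After recentring it was called lower in LinNeg (adjusted p = 0.0172). Suv39h2, a histone methyltransferase gene overlapping 8316 bases of Dclre1c on the other strand, rose in both authors' deposited tables, by 1.21 ± 0.31 in LinNeg (adjusted p = 0.000482) and 0.51 ± 0.10 in LSK (adjusted p = 2.14e-06), while Dclre1c was not called. Mir6904, a microRNA gene inside Parp1, averaged 1.12 normalized counts in LinNeg, where it has no adjusted p, and 4.61 in LSK, where it was not called in the authors' deposited table (adjusted p = 0.274).

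The genes whose pair of fold changes lay nearest to that of Xrcc5, of 10424 candidates whose mean reached 100 in each table, were 9430020K01Rik (distance 0.11 on the log2 scale), Tom1l1 (0.18), Zfpm1 (0.32), Ehhadh (0.35) and Socs1 (0.38). Zfpm1 is the GATA1 cofactor of red cell and platelet precursors, Ehhadh an enzyme of peroxisomal fat oxidation and Socs1 an inhibitor of cytokine signalling. In LSK the authors' deposited table had them between 0.13 and 0.78. The likeness is over 2 comparisons only.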

How the data were processed

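The authors deposited a table of their own KO against WT comparison for each population. HISAT2, StringTie, SAMtools 1.10, DESeq2 and build mm10 are named, per the submitters' processing notes. Libraries were rRNA-depleted per the labels' protocols. The counting program is not given in the sources used here. Per the file headers, each gene has a mean of normalized counts (a linear signal), a log2 fold change with its standard error, a Wald score, a p-value and an adjusted p-value, all deposited by the authors. Values per library were not used, so the depth of single libraries is unknown, and precision is given by the standard errors alone.

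Of 24542 rows, 5 naming no gene and 4 with repeated symbols were left out; reads without a feature were 38.0% of the summed means in LinNeg and 26.4% in LSK. The deposited log2 fold changes are rounded, so each was rebuilt by multiplying the Wald statistic by the standard error. Intervals are 95% normal intervals. Group means assume 3 libraries a side. The difference test was tested on simulated data. Coordinates and exon lengths, merged over all transcripts, are from GENCODE M21. The members, gene lists and tests were chosen with earlier results of these data known. Named genes were all members, up to 3 of each list by adjusted p per table, genes within 1 kb of a member's start or overlapping it, and the 5 nearest to Xrcc5. Poll is given besides, next to Polm, and is not counted among the named genes. For 4 list genes an older symbol was used and 2 (Paxx and Shld3) were not matched. A further accessory gene is not reported here and was left out of that list's counts. Alternatives were a stricter threshold, recentring, other filters, a fold limit and rounded fold changes. Figures used matplotlib 3.10.9, and all else scipy 1.17.1, numpy 2.4.6 and pandas 2.3.3 under Python 3.11.15.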

Additional observations from a re-analysis of the deposited data

Results flagged for a closer look

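Of 48 named genes with a difference test, the KO effect differed between LSK and LinNeg for 23, or 47.9%, beside 31.9% of all genes tested. The named genes were largely picked by adjusted p or by nearness to Xrcc5, so their share follows in part from that choice. Among the end-joining genes the difference, LSK minus LinNeg on the log2 scale, was -2.32 for Xrcc5, -0.83 for Xrcc6 and -0.74 for Trp53bp1. Among related genes it was positive for Polm (1.58), Wrn (0.75), H2afx (0.87), Parp8 (1.45), Hmgb2 (1.33), Hmgb1 (0.67), Shfm1 (1.39) and Abhd13 (0.46). It was negative for Dntt (-5.02), Rif1 (-0.49), Atm (-0.51), Parp3 (-0.68), Brca2 (-0.60) and Xrcc2 (-0.62). For the genes chosen by nearness to Xrcc5 the difference follows from that choice: 9430020K01Rik (-2.20), Tom1l1 (-2.51), Zfpm1 (-2.05), Ehhadh (-1.83) and Socs1 (-2.75). For Pecr, described among the other observations, it was -1.77.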

How the results depend on the processing

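The count of end-joining genes called in LinNeg, 4, was 2 at an adjusted p under 0.01 and 2 with a change of at least 1.5-fold (Xrcc5 and Xrcc6 both times), and that in LSK, 5, was 2 with the fold limit (Xrcc4 and Trp53bp1). The shares of all genes that pass these stricter limits are not given here, so nothing particular to end joining is drawn from these counts. The other settings kept counts within 1.5 times, though not always the same genes. In LinNeg recentring gave 3, with Parp1 and Prkdc out and Trp53bp1 in. The 3 genes that differed between populations were Xrcc5, Xrcc6 and Trp53bp1 under each of the 6 alternatives run. Recentring turned the sign of uncalled LinNeg values for Xrcc4 (to -0.15) and Nhej1 (to -0.032). No paired analysis was possible because the deposited tables hold comparisons and no values per library; for the same reason no replicate could be left out. Depth limits Nhej1 most, with the widest errors of the 9 genes. The tables were normalized separately, so levels were not compared between them.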

Other observations

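A neighbour of Xrcc5 shared its pattern; it was chosen after its values were seen. Pecr, a peroxisomal enoyl reductase gene that starts 23.1 kb before Xrcc5 on the opposite strand, had derived means of 331 in LinNeg KO and 71.4 in LinNeg WT, and 330.3 in LSK KO and 243 in LSK WT. The authors' deposited tables gave it 2.21 ± 0.36 in LinNeg (adjusted p from the authors' DESeq2 run = 1.18e-08) and 0.44 ± 0.15 in LSK (adjusted p = 0.00439), next to 2.82 and 0.51 for Xrcc5. Within 500 kb of the Xrcc5 start 4 other genes were tested in both, and in LinNeg Pecr was the 1 that was called, beside 41.4% of all genes. In LSK 3 of the 4 were called, 2 higher and 1 lower, beside 61.6% of all genes called (32.4% higher and 29.2% lower). Besides Pecr these were the ribosomal protein gene Rpl37a at 0.55 ± 0.09 (adjusted p = 3.64e-10) and Smarcal1 at -0.19 ± 0.07 (adjusted p = 0.00627), per the authors' deposited table. Smarcal1, a fork-remodelling helicase 276 kb away, stood at -0.08 ± 0.16 in LinNeg in the authors' deposited table.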
